A study of Mus musculus with 8 samples.

Results

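Chemokines are small secreted proteins that direct the migration of leukocytes, glia and neural progenitors through G protein-coupled receptors. They are classed by the spacing of their first cysteines, as CC, CXC and CX3C ligands. Astrocytes are a known source in the brain of ligands that attract monocytes and neutrophils after injury, and of the homeostatic ligand Cxcl12, which guides migrating precursors. The 10 chemokine genes described here are Ccl2, Ccl5, Ccl7, Ccl20, Cxcl1, Cxcl5, Cxcl10, Cxcl12, Cxcl14 and Cx3cl1. They were chosen by name, as the genes that the array's platform annotation gives for a probe set, and 18 of 45101 probe sets carried one of these names alone. Of 18194 genes with a probe set of their own, these are 10.

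The series profiled mouse astroglia by array, with the source labelled as cerebral cortex, in 4 groups of 2 samples with 1 array each. The groups were FGF2 with U0126, an inhibitor of the MEK kinases that activate ERK; FGF2 with SB202190, an inhibitor of p38 kinases; FGF2 (fibroblast growth factor-2) alone; and a vehicle control without growth factor. No inhibitor was given without FGF2. The labels name no strain, age, dose or time, and do not say whether the RNA came from cultured cells or from tissue. They also do not say whether the replicates were separate cultures, so a p-value covers just the scatter of these samples, and that scatter may be technical. Replicate 2 of FGF2 with SB202190 carried another word for the type of treatment (acclimatization in place of wait) and was kept in its group.

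Values are signals, that is, deposited intensities on a linear scale. A log2 change ± SE comes from a limma fit of all 8 arrays on log2(signal + 1.77) with quantile normalization between arrays. The added 1.77 shrinks the change of low signals, while the normalization can make a change larger or smaller than the printed signals give. Calls were made where the adjusted p (Benjamini-Hochberg over all genes tested) was under 0.05, and n is 2 arrays a group throughout. The median signal per array was 22.3 to 27.8, and replicates correlated across the genes tested with r of 0.980 to 0.984, against 0.947 to 0.981 for arrays of different groups. Replicate 2 of FGF2 had the highest signals of the control transcripts added during the assay (312.3 for bioB, against 187.4 to 248.6 on the other arrays). Of 12 astrocyte markers 12 lay above the filter on dim genes. Of 15 microglial and macrophage markers 8 did, among them Cd68 with signals of 112.8 to 305.9, while Aif1, P2ry12, Itgam and Ptprc did not. Of 11 neuronal markers 7 did, among them Stmn2 with signals of 1338 to 1970, Map2 with 382 to 583 and Tubb3 with 50.4 to 169.8, while Rbfox3, Snap25 and Slc17a7 did not. Of 9 endothelial markers 5 did, among them Kdr and Esam, while Pecam1 and Cldn5 did not. Of 11 markers of meningeal fibroblasts and pericytes 9 did, among them Dcn with 1351.6 to 3069.7. Of 7 oligodendrocyte lineage markers 5 did. All 7 ependymal and choroid plexus markers did, among them Ttr with 1900 to 3140 and Foxj1 with 217 to 802. In FGF2 against vehicle 6 of these 7 were called lower, where 19% of all genes were.

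Of the 10 chemokine genes 8 passed the filter. Ccl20 and Cxcl5 fell below it, and the 4 genes with several probe sets (Cxcl1, Cxcl12, Cxcl14 and Cx3cl1) were represented by the one with the highest mean. RefSeq promoter windows on GRCm38.p6 were at hand for 6 of the 10 genes, Ccl20, Cxcl1, Cxcl10, Cxcl12, Cxcl14 and Cx3cl1. The 250 bases before the start are printed for 4 of them: Cx3cl1, which rose with FGF2, Cxcl12 and Cxcl1, which fell, and Cxcl10, which was not called. Capitals mark matches to the consensus of NF-kB, the inflammatory transcription factor, on either strand.
Cx3cl1, chr8:94771930-94772179, plus strand: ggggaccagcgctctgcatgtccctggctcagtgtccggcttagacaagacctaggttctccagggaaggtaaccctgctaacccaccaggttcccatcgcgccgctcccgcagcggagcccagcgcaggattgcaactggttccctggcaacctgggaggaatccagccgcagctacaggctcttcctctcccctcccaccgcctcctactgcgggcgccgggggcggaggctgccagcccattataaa
Cxcl12, chr6:117168285-117168534, plus strand: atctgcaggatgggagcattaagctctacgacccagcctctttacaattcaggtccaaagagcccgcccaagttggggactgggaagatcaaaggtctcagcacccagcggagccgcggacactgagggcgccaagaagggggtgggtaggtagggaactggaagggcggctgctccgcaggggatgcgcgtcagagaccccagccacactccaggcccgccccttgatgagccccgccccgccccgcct
Cxcl1, chr5:90890995-90891244, plus strand: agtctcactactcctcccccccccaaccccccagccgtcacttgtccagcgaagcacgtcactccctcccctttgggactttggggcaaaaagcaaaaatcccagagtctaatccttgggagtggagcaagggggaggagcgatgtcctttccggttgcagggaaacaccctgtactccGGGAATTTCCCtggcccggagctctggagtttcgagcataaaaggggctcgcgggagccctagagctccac
Cxcl10, chr5:92348890-92349139, minus strand: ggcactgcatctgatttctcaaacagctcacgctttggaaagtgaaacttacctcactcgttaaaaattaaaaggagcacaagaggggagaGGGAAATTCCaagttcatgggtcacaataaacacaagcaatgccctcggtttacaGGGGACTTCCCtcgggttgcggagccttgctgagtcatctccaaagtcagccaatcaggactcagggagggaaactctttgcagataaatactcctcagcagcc

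In the full windows, which run to 50 bases past the start, the NF-kB consensus was found in 3 of the 6 promoters, those of Ccl20, Cxcl1 and Cxcl10, and in 8.46% of 32851 promoter windows of the genome. The run of capitals of Cxcl1 holds a pair of overlapping matches, 1 on each strand, and so does the second run of Cxcl10, with both on the plus strand. The AP-1 letters TGANTCA occurred in Cxcl10 alone of the 6 (7.81% of all windows). The interferon response consensus was found in Cxcl10 and Cxcl14 (3.44% of all windows). The ETS letters CCGGAA, read on both strands, occurred in Cxcl1 (14.9% of all windows), and the TATA letters TATAAA in Cx3cl1 (13.6%). The serum response (CArG) consensus was in 0 of the 6 windows and in 1.63% of all. A match describes the letters of the window only.

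FGF2 moved the chemokine genes both ways. The monocyte ligands Ccl2 and Ccl7 and the membrane-bound ligand Cx3cl1 rose, while Cxcl12 and the neutrophil ligand Cxcl1 fell. Of 8 genes tested 5 were called in FGF2 against vehicle, 3 higher and 2 lower, against 37.9% of all 13174 genes (18.9% higher and 19% lower). The median log2 change of the 8 was 0.186, against -0.004 over all genes. Centring each array on its median, in place of quantile normalization, moved the median of all genes to 0.158 and the share of calls that were higher to 73.1%, against 49.9% in the fit reported here, while the calls of these 5 genes kept their direction. In bulk RNA, fewer cells of a type and less RNA per cell cannot be told apart.

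**Figure D1:**
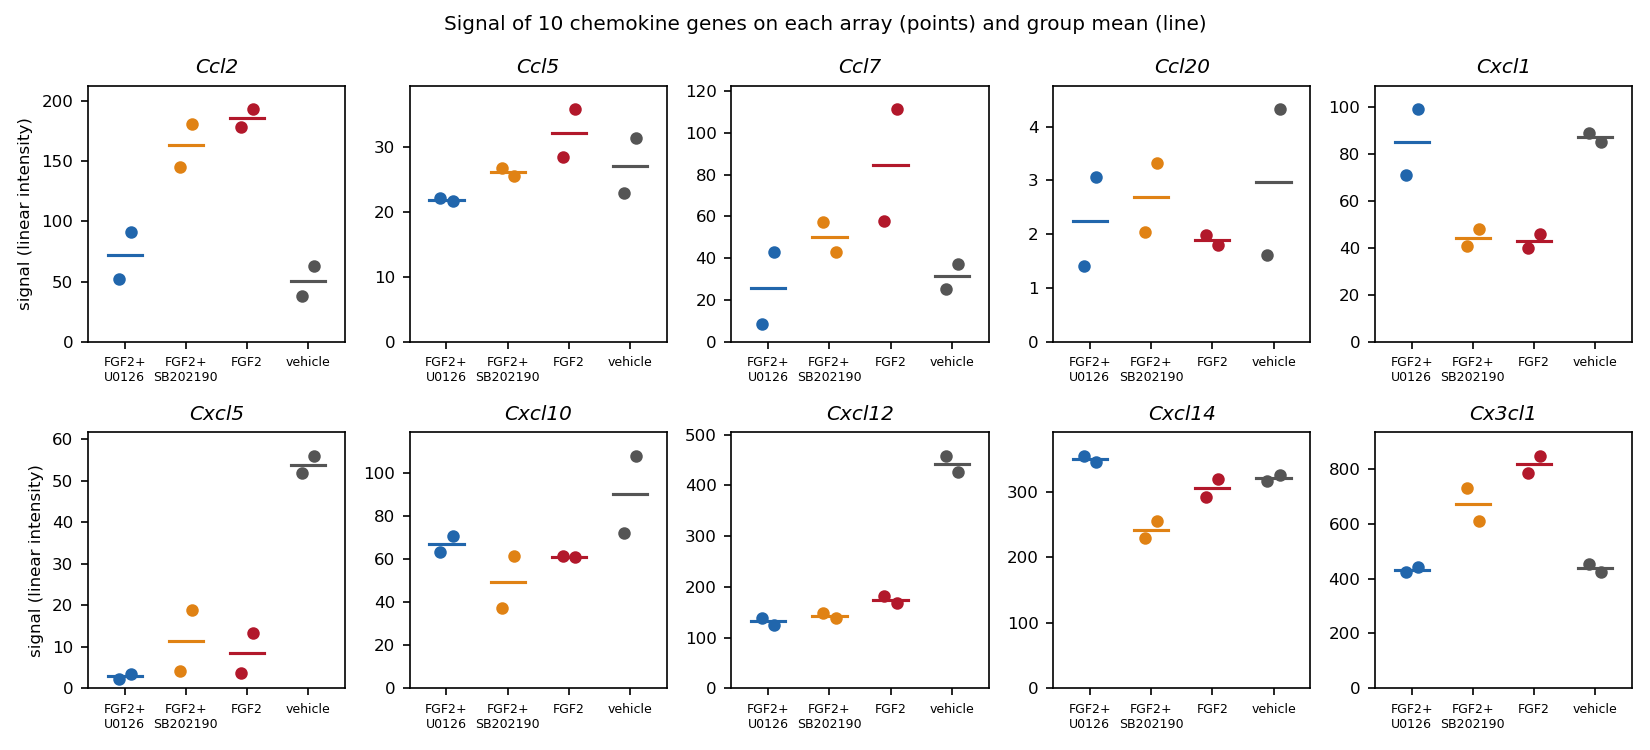
Signal (linear intensity, axes from 0, a scale of its own for each gene) of the 10 chemokine genes on the 8 arrays, with points for arrays and lines for group means of 2. Ccl2 and Cx3cl1 were higher with FGF2 alone and with FGF2 and SB202190 than with vehicle or with FGF2 and U0126, while Cxcl12 was highest with vehicle.

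Ccl2, the main attractant of monocytes through the receptor Ccr2, had signals of 178 and 193 with FGF2, against 38.2 and 62.7 with vehicle. Both FGF2 arrays lay above both vehicle arrays, and the log2 change was 2.00 ± 0.27 (limma, adjusted p = 6.46e-05). This call held under all 21 alternative settings of the processing. Ccl7, which shares receptors with Ccl2 and lies next to it on chromosome 11, had 57.7 and 111 with FGF2, against 25.4 and 37.1 with vehicle. The groups did not overlap, but the FGF2 arrays were about as far apart as the groups. Its log2 change was 1.497 ± 0.557 (adjusted p = 0.0493), and the call was lost in 12 of 20 alternative settings, among them leaving out replicate 2 of FGF2 (1.03), replicate 1 of vehicle (1.21), replicate 2 of vehicle (1.81) or either array of FGF2 with SB202190 (both 1.49). Ccl5, a ligand of T cells and monocytes, had 28.6 and 35.9 with FGF2, against 22.9 and 31.4 with vehicle. These groups overlapped, and the difference of 0.44 had a 95% confidence interval of -0.28 to 1.17 (adjusted p = 0.334). Ccl20, the ligand of Ccr6, had signals of 1.42 to 4.32 over the 8 arrays.

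Ccl11 and Ccl12 follow Ccl7 on the chromosome, with Ccl8 after them. Ccl11 and Ccl12 lay below the filter. Ccl8, also a monocyte ligand, had 64.5 and 81.4 with FGF2, against 114 and 125 with vehicle, a log2 change of -0.65 ± 0.20 (adjusted p = 0.0190) in the opposite direction to Ccl2 and Ccl7. That call did not hold without replicate 1 of FGF2 (-0.48), without replicate 2 of vehicle (-0.57) and in 2 other settings.

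Cx3cl1, or fractalkine, is made as a membrane-bound protein, is shed by proteases and acts on Cx3cr1, which in the brain is known for its expression by microglia. It had signals of 786 and 848 with FGF2, against 453 and 425 with vehicle. The groups lay far apart relative to the spread of their replicates, with a log2 change of 0.88 ± 0.09 (adjusted p = 5.48e-06). Its second probe set, 1415804_at, had 277 and 288 with FGF2, against 176 and 176 with vehicle, and changed by 0.70 ± 0.13 (adjusted p = 0.00137 over all probe sets). Averaging all 4 probe sets of the gene gave 0.63 and ended the call (adjusted p = 0.0516). The remaining pair of probe sets stayed at signals of 0.651 to 6.40 on all arrays and lay below the filter. Markers of neurons, another cell type known to make Cx3cl1, moved both ways with FGF2. Of 7 tested neuronal markers 3 rose with FGF2 and 1 fell, where 18.9% of all genes were called higher and 19% lower. The summed signal of the 11 neuronal markers on the array was 2439 to 2560 with FGF2, against 2324 to 2340 with vehicle. Most of that sum was Stmn2, with 1702 and 1800 with FGF2, against 1534 and 1556 with vehicle. The part of neurons in the Cx3cl1 result was not tested.

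Among the CXC ligands, Cxcl12 had signals of 182 and 168 with FGF2, against 458 and 427 with vehicle. Both FGF2 arrays were far below both vehicle arrays, and the log2 change was -1.33 ± 0.11 (adjusted p = 9.51e-07). The call was lost in 1 setting, the mean of the gene's 3 probe sets (-0.46). Of the other two probe sets 1417574_at had 45.6 and 29.4 with FGF2, against 39.4 and 26.3 with vehicle, with overlapping groups and a change of 0.36 ± 0.59 (adjusted p = 0.708 over all probe sets). The last, 1439084_at, lay below the filter. The fall of Cxcl12 thus rests on the probe set 1448823_at.

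Cxcl1, a neutrophil attractant that acts through Cxcr2, had 39.9 and 46.1 with FGF2, against 89.2 and 85.3 with vehicle. The groups did not overlap, and the log2 change was -0.91 ± 0.22 (adjusted p = 0.00461). These values come from 1441855_x_at, a probe set of a type that can bind related transcripts. With 1419209_at, which is not of that type, the signals were 14.3 and 23.5 with FGF2, against 43.6 and 46.0 with vehicle. There the groups did not overlap either, and the change of -1.05 ± 0.52 was not called (adjusted p = 0.157 over all probe sets).

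Cxcl5, the other listed ligand of Cxcr2, had signals of 3.65 and 13.4 with FGF2, against 51.8 and 56.0 with vehicle. It was low in all 3 groups with FGF2, and its mean over the 8 arrays lay just below the filter. With no filter on dim genes the log2 change was -2.50 ± 0.69 (adjusted p = 0.0190 over 18194 genes), and with a pseudocount of 16 it was -1.45, so the size rests on the pseudocount while the direction does not. This fit was added after the values had been seen. Cxcl10, an interferon-induced attractant of T cells, had 61.1 and 60.9 with FGF2, against 72.0 and 108 with vehicle, and its change of -0.45 was not called (95% confidence interval -1.004 to 0.109, adjusted p = 0.199). Cxcl14, a ligand of epithelia and brain whose receptor is not settled, had 292 and 320 with FGF2, against 318 and 325 with vehicle. Its groups overlapped, with an interval of -0.28 to 0.14 for the difference (adjusted p = 0.611).

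**Figure D2:**
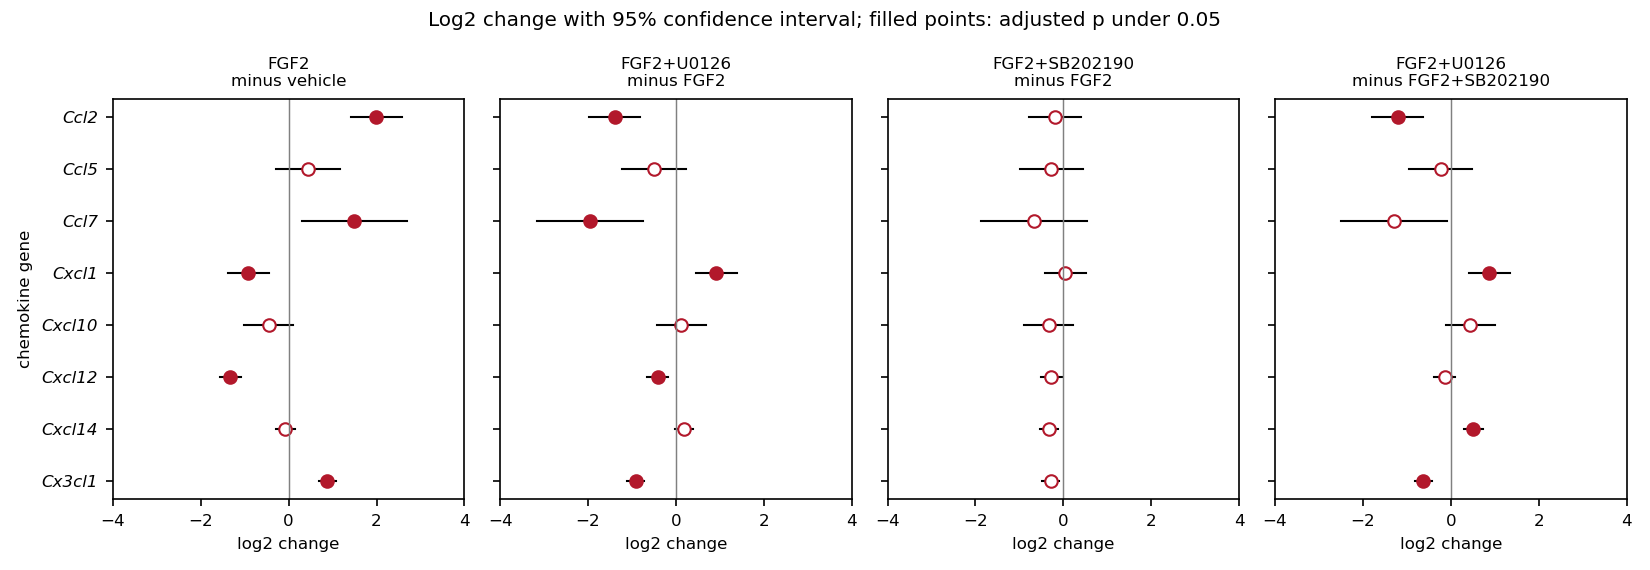
Log2 change (first minus second group, horizontal axis) of the 8 chemokine genes tested in 4 comparisons, with 95% confidence intervals from limma as lines and filled points for adjusted p under 0.05. Ccl2, Ccl7 and Cx3cl1 lie right of 0 for FGF2 against vehicle and left of 0 for U0126 with FGF2 against FGF2, Cxcl1 lies the other way round, and no point is filled for SB202190 with FGF2 against FGF2.

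The U0126 group addressed which of these levels depend on MEK. With U0126 present, Ccl2, Ccl7 and Cx3cl1 were lower than with FGF2 alone and Cxcl1 was higher, while Cxcl12 was lower still. Of 8 genes tested 5 were called, 1 higher and 4 lower, against 22.1% of all genes (11.6% higher and 10.5% lower). The median log2 change of the 8 was -0.46, against 0.03 over all genes. This comparison shares the FGF2 arrays with that of FGF2 against vehicle, so the values of both are given side by side and their agreement is no separate evidence.

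Ccl2 had signals of 52.1 and 91.5 with FGF2 and U0126, against 178 and 193 with FGF2. The groups did not overlap, and the change was -1.40 ± 0.27 (adjusted p = 0.00241, or 0.0568 without a variance trend). Against vehicle the signals overlapped, and the remaining difference of 0.60 ± 0.27 was not called (adjusted p = 0.113), but it passed in 4 alternative settings, among them without replicate 1 of FGF2 with U0126 (1.00) and without replicate 2 of vehicle (1.00). With U0126 Ccl7 had 8.33 and 43.2, against 57.7 and 111 with FGF2, a change of -1.95 ± 0.56 (adjusted p = 0.0232). Its U0126 replicates differed more than 5-fold from each other, and the call ended when replicate 1 of that group (-0.82) or replicate 2 of FGF2 (-1.49) was left out.

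Cx3cl1 had 423 and 441 with FGF2 and U0126, against 786 and 848 with FGF2, a change of -0.92 ± 0.09 (adjusted p = 1.21e-05). Its level under U0126 overlapped with vehicle, and that difference was -0.04 with an interval of -0.23 to 0.15. The second probe set changed by -0.80 ± 0.13 (adjusted p = 0.00141 over all probe sets), while the average of all 4 was at -0.27 and not called. Of 7 tested neuronal markers 3 fell and 0 rose in this comparison, where 10.5% of all genes were called lower and 11.6% higher. The summed signal of the 11 neuronal markers was 1926 to 1943 with U0126, against 2439 to 2560 with FGF2 alone. Their part was not tested.

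Cxcl1 had signals of 71.3 and 99.2 with FGF2 and U0126, against 39.9 and 46.1 with FGF2. The groups did not overlap, and the change of 0.92 ± 0.22 was called (adjusted p = 0.00844), but not without replicate 1 of FGF2 (0.81) or replicate 2 of FGF2 with U0126 (0.66). With 1419209_at the U0126 arrays lay far apart, at 36.3 and 6.74, around the FGF2 arrays at 14.3 and 23.5, and the change was -0.08. With 1457644_s_at it was 1.08 ± 0.85 and not called (adjusted p = 0.447 over all probe sets), so 1 of 3 probe sets carried the call. Cxcl5 had 2.25 and 3.56 with U0126, against 3.65 and 13.4 with FGF2, and with no filter its change was not called (adjusted p = 0.4996). Against vehicle, the U0126 signals of Cxcl1 overlapped with 1441855_x_at but lay lower without overlap with 1419209_at (-1.14) and 1457644_s_at (-1.09), neither of which was called.

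Cxcl12 had 138 and 125.8 with FGF2 and U0126, against 182 and 168 with FGF2. The change of -0.42 ± 0.11 was called (adjusted p = 0.0160), but not without replicate 1 of FGF2 (-0.36) or replicate 2 of FGF2 with U0126 (-0.36). Against vehicle, at 458 and 427, the change of Cxcl12 was -1.74 ± 0.11 (adjusted p = 1.15e-07). This was the only call among the 8 genes in that comparison, where 31.7% of all genes were called (16.7% higher and 15% lower). Without replicate 2 of FGF2 with U0126, Ccl7 was also called there (-1.56). Ccl5, Cxcl10 and Cxcl14 were not called in either comparison.

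The SB202190 group addressed the same question for p38. None of the 8 genes was called by limma against FGF2 alone, where 3.02% of all genes were called (1.32% higher and 1.7% lower). At an unadjusted p under 0.05 there were 3, Cxcl12, Cxcl14 and Cx3cl1, all lower with SB202190, against 17% of all genes. Ccl2 had 145 and 181 with FGF2 and SB202190, against 178 and 193 with FGF2, and the difference of -0.19 had an interval of -0.78 to 0.39. Cx3cl1 had 731 and 611 with SB202190, against 786 and 848 with FGF2, a change of -0.29 ± 0.09 (adjusted p = 0.0990). Cxcl14 had 229 and 256, against 292 and 320 with FGF2, a change of -0.33 ± 0.10 (adjusted p = 0.0878). In both genes the SB202190 arrays lay below both FGF2 arrays without passing the test. Of 7 tested neuronal markers 0 were called by limma in this comparison. The summed signal of the 11 neuronal markers was higher, at 2669 to 2691 with SB202190, against 2439 to 2560 with FGF2, while Cx3cl1 was lower. Their part was not tested here either. A difference of the size of the U0126 effect on Ccl2 lies outside the interval for SB202190.

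Against vehicle 6 of the 8 genes were called with SB202190 present, 2 higher and 4 lower, where 35.8% of all genes were called (18% higher and 17.8% lower). Ccl2 was higher by 1.80 ± 0.27 (adjusted p = 1.55e-04), a call that held in all settings, and Cx3cl1 by 0.58 ± 0.09 (adjusted p = 1.82e-04). The second Cx3cl1 probe set, 1415804_at, was at 0.37 ± 0.13 and not called (adjusted p = 0.0540 over all probe sets). Cxcl12 was lower by a log2 change of -1.61 ± 0.11 (adjusted p = 1.44e-07) and Cxcl1 by -0.87 ± 0.22 (adjusted p = 0.00671). The other probe sets above the filter were not called, with Cxcl12 at -0.20 (1417574_at) and Cxcl1 at -0.48 (1419209_at) and -0.84 (1457644_s_at). Cxcl14 with 1418456_a_at was not called either (-0.18). Cxcl10 had 37.0 and 61.5 with SB202190, against 72.0 and 108 with vehicle, and was lower by -0.78 ± 0.26 (adjusted p = 0.0312), a call lost in 6 settings. Without replicate 1 of FGF2 with SB202190 the calls of Cxcl1 (-0.77), Cxcl10 (-0.44) and Cxcl14 (-0.32) were lost and 3 calls were left, and that of Cxcl10 was also lost without replicate 2 of vehicle (-0.46). Cxcl5 had 4.08 and 18.8 with SB202190, against 51.8 and 56.0 with vehicle.

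The direct comparison of the inhibitors tests whether their effects differ. Of 8 genes 4 were called between U0126 and SB202190, both with FGF2, 2 higher and 2 lower, against 22.7% of all genes (12.4% higher and 10.3% lower). Ccl2 was lower with U0126 by a log2 change of -1.21 ± 0.27 (adjusted p = 0.00604) and Cx3cl1 by -0.62 ± 0.09 (adjusted p = 2.46e-04). Leaving out U0126 replicate 1 (-0.80) or SB202190 replicate 2 (-1.05) ended the call of Ccl2. Cxcl14 had 355 and 347 with U0126, against 229 and 256 with SB202190, and was higher by 0.52 ± 0.10 (adjusted p = 0.00193), in all 21 alternative settings. Cxcl1 was higher by 0.87 ± 0.22 (adjusted p = 0.0109), which did not pass when U0126 replicate 2 (0.62) or SB202190 replicate 1 (0.77) was left out, and whose direction turned with 1419209_at (-0.66) and 1457644_s_at (-0.25). For Cxcl12 the inhibitor groups differed by -0.14, with an interval of -0.37 to 0.10, and for Ccl7 by -1.28, with an interval of -2.49 to -0.08 and an adjusted p of 0.120, or 0.00322 without replicate 2 of FGF2 with U0126 (-2.39). Doses were not given, so the inhibitors could not be matched.

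Both receptors of Cxcl12, Cxcr4 and Ackr3, fell with FGF2. Of 21 receptor genes on the array 7 passed the filter, and these 2 were called in FGF2 against vehicle, with 0 higher, where 37.9% of all genes were called. Ccrl2, an atypical receptor named after its values were seen, had 13.8 and 13.6 with FGF2, against 25.8 and 30.0 with vehicle. Ackr1 had 26.8 and 27.7 with FGF2, against 43.7 and 51.1 with vehicle. Both lay lower without overlap and were not called (adjusted p = 0.178 for Ccrl2 and 0.198 for Ackr1). The receptors of the other listed ligands were low: Ccr1, Ccr2, Ccr6, Cxcr2 and Cx3cr1 lay below the filter, and Cxcr3 and Ackr1 passed it without a call in this comparison. Cxcr4, the signalling receptor of Cxcl12, had signals of 126.3 and 130.9 with FGF2, against 316 and 374 with vehicle, a change of -1.40 ± 0.15 (adjusted p = 9.18e-06). Ackr3, an atypical receptor that takes up Cxcl12, had 319 and 326 with FGF2, against 525 and 494 with vehicle, a change of -0.67 ± 0.09 (adjusted p = 8.25e-05). Both calls held in every setting tried for them.

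**Figure D3:**
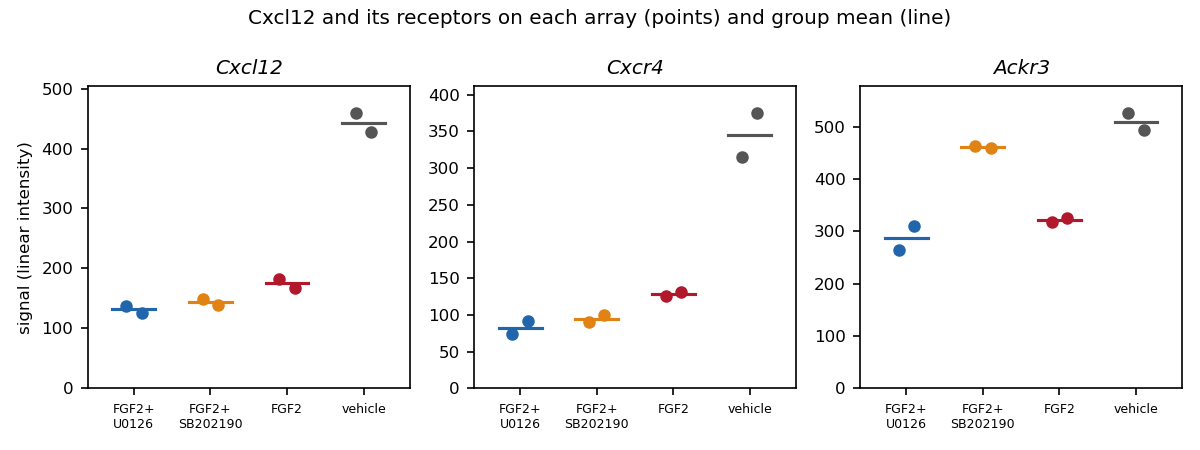
Signal (linear intensity, axes from 0) of Cxcl12 and of its receptors Cxcr4 and Ackr3 on the 8 arrays, with points for arrays and lines for group means of 2. All 3 genes were lower with FGF2 than with vehicle, and Ackr3 was higher with SB202190 than with U0126.

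The receptors differed under the inhibitors. Cxcr4 had 73.3 and 91.6 with FGF2 and U0126, against 126.3 and 130.9 with FGF2, a change of -0.64 ± 0.15 (adjusted p = 0.00810) that was not called without replicate 2 of FGF2 (-0.60) or replicate 1 of FGF2 with U0126 (-0.47). With SB202190 it had 90.0 and 100.1 and was not called against FGF2 (adjusted p = 0.156). Ackr3 had 463 and 460 with FGF2 and SB202190, against 319 and 326 with FGF2, a change of 0.50 ± 0.09 (adjusted p = 0.0114) that was lost without any 1 of these 4 arrays (0.48 to 0.52). With U0126 it had 265 and 310 and was not called against FGF2 (adjusted p = 0.193). The inhibitor groups differed in Ackr3 by -0.69 ± 0.09, U0126 minus SB202190 (adjusted p = 1.73e-04), and in Cxcr4 by -0.22 ± 0.15 (adjusted p = 0.343).

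Markers of other cells that make or bind Cxcl12 were compared as well. Their counts are to be read against the 18.9% of all genes called higher and 19% called lower with FGF2. Of 9 tested markers of meningeal fibroblasts and pericytes 7 fell with FGF2 and 0 rose, with a summed signal over 11 genes of 6734 to 7158 with FGF2, against 12360 to 12550 with vehicle. Of 5 tested endothelial markers 1 rose and 1 fell, which is near these shares. The summed signals over 9 genes were 252 to 268 with FGF2, against 217 to 218 with vehicle. All 12 astrocyte markers fell, with summed signals of 13740 to 13870 with FGF2, against 25530 to 25800 with vehicle. Of 8 tested microglial markers 1 fell and 0 rose, which is not above these shares. The summed signals over 15 genes were 503 to 519 with FGF2, against 574 to 708 with vehicle. The part of any of these in the fall of Cxcl12, Cxcr4 or Ackr3 was not tested.

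The remaining ligands of the family were mostly dim. Of 25 other chemokine ligands on the array 9 passed the filter, and only Ccl8 was called with FGF2 against vehicle. None of the 9 was called by limma for U0126 or SB202190 against FGF2, where 22.1% and 3.02% of all genes were. Genes of pathways that act on chemokine genes are given by their counts, to be read against the 37.9% of all genes called with FGF2. Of 22 tested NF-kB pathway genes 2 rose and 3 fell with FGF2, and 17 were not called, with a median of 0.00. By the smallest p these were the adaptor Tab2 at -0.96 ± 0.06, the adaptor Myd88, shared by Toll-like and interleukin-1 receptors, at -0.54 ± 0.10, the kinase Map3k7 at 0.45 ± 0.11 and Tnip1, a partner of the inhibitor A20, at -0.35 ± 0.11. The calls of Map3k7 and Tnip1 were lost without replicate 1 of vehicle (0.33 and -0.24), and that of Tnip1 also without replicate 1 (-0.35) or replicate 2 of FGF2 (-0.35). That of Map3k7 was also lost without probe sets that can bind several transcripts (0.23) and when its probe sets were averaged (0.51). Median centring ended that of Tnip1 (-0.17). With U0126 against FGF2 5 rose and 2 fell, where 11.6% of all genes were called higher and 10.5% lower. The median log2 change was 0.20, against 0.03 over all genes. Those that rose included Rela at 0.22 ± 0.07 (adjusted p = 0.0495) and Nfkbib at 0.48 ± 0.16 (adjusted p = 0.0484). Neither was tried under the alternative settings. The 2 that fell were Nfkbia and Map3k7. The inhibitor Nfkbia, itself a target of NF-kB, changed by -0.54 ± 0.08 (adjusted p = 5.18e-04), and Map3k7 by -0.41 ± 0.11, a call lost in 6 of 21 settings. It was at -0.02 without probe sets that can bind several transcripts and at -0.09 when its probe sets were averaged, and it was also lost without replicate 1 (-0.37) or 2 of FGF2 (-0.45) and without replicate 1 of FGF2 with U0126 (-0.39). With SB202190 0 of the 22 were called by limma, where 3.02% of all genes were.

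Of 14 interferon signalling genes 1 rose and 5 fell with FGF2, with a median of -0.15. By the smallest p these were the feedback inhibitor Socs3 at -1.24 ± 0.20, Irf9 and Stat2, subunits of the factor that drives interferon-stimulated genes, at -0.80 ± 0.14 and -0.67 ± 0.14, and the interferon-induced factor Irf7 at -0.80 ± 0.20. The call of Irf7 was lost without replicate 1 of FGF2 (-0.60) and without replicate 1 of vehicle (-0.69). Of 10 genes for the decay or stability of AU-rich messages, the class to which many chemokine mRNAs belong, 4 rose and 2 fell. The decay factor Zfp36l1 had -0.75 ± 0.07, its relative Zfp36l2 0.58 ± 0.08, Hnrnpd 0.56 ± 0.06 and the stabilising factor Elavl1 0.53 ± 0.08. The call of Hnrnpd was lost without probe sets that can bind several transcripts (0.29), and that of Elavl1 when its probe sets were averaged (0.31). With U0126 against FGF2 4 of the 10 fell and 0 rose, where 10.5% of all genes were called lower and 11.6% higher. Of the 4, Elavl1 was at -0.31 ± 0.08, which turned to 0.11 when its probe sets were averaged. It was not called without replicate 1 of FGF2 (-0.28) or of FGF2 with U0126 (-0.26).

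Of 6 proteases that cut chemokines 4 fell with FGF2 and 0 rose, where 19% of all genes were called lower and 18.9% higher. The metalloproteinase Mmp2, which can inactivate Cxcl12, had -0.995 ± 0.105 and the cathepsin Ctss, also listed as a microglial marker, -0.89 ± 0.16. Adam10, which sheds Cx3cl1 from the membrane, had -0.36 ± 0.08 and the cathepsin Ctsb -0.34 ± 0.04. Neither was called with the arrays centred on their medians, where Adam10 was at -0.14 and the direction of Ctsb turned, to 0.08. The call of Adam10 was also lost when its probe sets were averaged (-0.10), and that of Ctsb without normalization between arrays (-0.12).

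Probe sets of the same gene did not always move together. Cx3cl1 had a pair of probe sets above the filter that moved in the same direction for FGF2 and for U0126, and so did those of Cxcl1 for FGF2. Those of Cxcl12 above the filter differed for FGF2, at -1.33 and 0.36. Both were lower with U0126 than with FGF2, at -0.42 and -1.83 (adjusted p = 0.0232 and 0.0553 over all probe sets). The third, 1439084_at, which lay below the filter, went the other way, with 18.2 and 15.8 with U0126, against 1.23 and 4.36 with FGF2. Cxcl14 was not called for FGF2 or U0126 with either of its probe sets. Across the 8 arrays, which share their 4 groups, the genes whose log2 values were most like those of Ccl2 were Cdc6 (r = 0.996) and Fblim1 (r = 0.978). For Cxcl12 they were Lxn (r = 0.996) and Plekha7 (r = 0.993), and for Cx3cl1 Pitpna (r = 0.993) and Eif4b (r = 0.993). For Ccl7 they were Sfr1 (r = 0.962) and Nrsn1 (r = 0.951), and for Cxcl1 Stmn1 (r = 0.988) and Atat1 (r = 0.982). These are the 2 highest correlations of each gene among 13174 genes, given as a description.

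**Figure D4:**
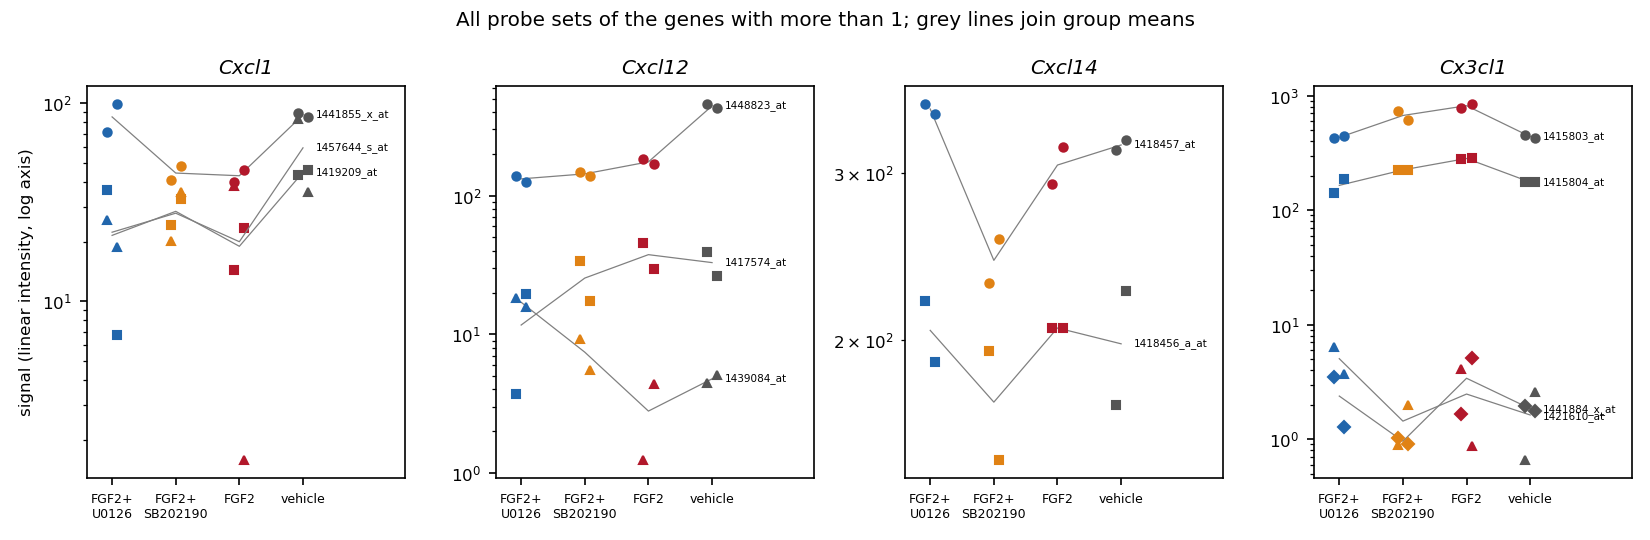
Signal (linear intensity, log axis) of every probe set of the 4 chemokine genes with more than 1, with points for arrays, a marker shape for each probe set and grey lines joining group means of 2. The brightest probe set of Cxcl12 is highest with vehicle while 1417574_at is not, and the upper pair of Cx3cl1 probe sets is highest with FGF2.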

How the data were processed

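Total RNA of 8 samples was measured on 1 array each. The values that the authors deposited are linear intensity readings of 45101 probe sets. No label names the algorithm behind them, but their 2% trimmed mean was 150.001 on each array, so they had been scaled alike. Detection calls were not used, and precision is limited by the number of arrays. Of the probe sets 34958 carried 1 gene symbol, 932 several and 9211 none, and only the first kind named genes. Values were taken to log2(value + 1.77), the 10th percentile of all values, with quantile normalization. Each gene took its brightest probe set, and 13174 of 18194 genes with a mean above the 40th percentile of all probe sets (3.83) were tested with limma (version 3.58.1, R 4.3.3), all arrays in 1 fit with an intensity trend, two-sided, with Benjamini-Hochberg adjustment in each of the 6 comparisons. SE and intervals do not measure the spread of the 2 groups compared. Each gene had 1 spread for all comparisons, pooled over the 4 groups (4 residual degrees of freedom). That spread was drawn toward the trend of all genes (median of 8.99 prior degrees of freedom). The fit was tested on simulated data. The 10 genes, the lists and the tests were chosen with earlier results of these data known. All 10 genes are named, with up to 4 of each list by the smallest p in FGF2 against vehicle, the receptors of these ligands and the 2 genes most alike to each called chemokine. Nfkbia, Map3k7, Rela, Nfkbib and Elavl1 for U0126 against FGF2, the neighbours Ccl11 and Ccl12, and Ccrl2 were picked after their values were seen. So were the markers Stmn2, Map2, Tubb3, Cd68, Kdr, Esam, Dcn, Ttr and Foxj1. RefSeq (GRCm38.p6) gave promoters and neighbours. Alternatives were other normalizations, pseudocounts (1 and 16), filters (none and the 60th percentile), variance priors, array subsets, treatments of probe sets, a replicate block, and fits without 1 array. Python 3.11.15 with matplotlib 3.10.9 made the plots.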

Additional observations from a re-analysis of the deposited data

How the results depend on the processing

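Each of 48 results on the chemokine genes was computed again under up to 21 other settings, 996 values in all. Of these 937 kept their side of the threshold, 48 lost the call, 7 gained one and 4 reversed. A change of sign counted as reversed only where a call was involved, so the 937 include uncalled values that changed sign. For example, Cxcl14 for FGF2 against vehicle ran from -0.14 to 0.13. Of 21 calls 3 held throughout, those of Ccl2 for FGF2 and for FGF2 with SB202190 against vehicle and of Cxcl14 between the inhibitors. No setting put the second Cxcl14 probe set, which was not called, in place of the brightest. When the probe sets of each gene were averaged, dim ones included, the number of chemokine genes called was 2 for FGF2 against vehicle, 1 for U0126 against FGF2, 2 between the inhibitors, 0 for U0126 against vehicle and 1 for SB202190 against vehicle. Between the inhibitors Cxcl1 was then at -0.0113 and Cx3cl1 at 0.16, and without probe sets that can bind several transcripts Cxcl1 was at -0.66, and at -0.0834 for U0126 against FGF2. The cause was not tested. Without a variance trend 3 chemokine genes were called for U0126 against FGF2, and with median centring 3 for U0126 against vehicle. Leaving out 1 array gave 3 to 5 calls for U0126 against FGF2, 1 to 2 for U0126 against vehicle and 3 to 6 for SB202190 against vehicle.

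Over all genes, testing every probe set gave 8243 calls for FGF2 against vehicle, 4409 for U0126 against FGF2, 4508 between the inhibitors, 6696 for U0126 and 7833 for SB202190 against vehicle, from more features tested. The mean of probe sets gave 1782 for U0126 and 170 for SB202190 against FGF2, and 1783 between the inhibitors. Without a trend limma gave 1619, 0 (1819 at an unadjusted p under 0.05) and 1735 for the same comparisons, and median centring 235 for SB202190 against FGF2. Leaving out 1 array gave 1782 to 2933, 82 to 396 and 1805 to 3012. Among the pathway genes named, Ctsb turned to 0.0783 for FGF2 against vehicle with median centring and Elavl1 to 0.11 for U0126 against FGF2 with the mean of probe sets. Replicate numbers did not pair the arrays (correlations of deviations -0.026 to 0.034), and a replicate block moved the chemokine count only for U0126 against vehicle, to 2, with Ccl2 at 0.60 (adjusted p = 0.0287). With 2 arrays a group and no detection calls, changes of dim genes such as Ccl20 and Cxcl5 are limited by signal over background.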
